A study of Mus musculus with 6 samples.

Results

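The immediate early genes Egr1, Egr2, Egr3, Fos, Fosb, Fosl1, Jun, Junb, Ier2 and Ier3 were described in mouse embryonic fibroblasts, connective tissue cells cultured from embryos. The members were the rows of the deposited count table that carry these symbols: all 10 were found among 23842 genes, and all 10 were among the 15039 genes counted deeply enough to be tested. Total RNA was sequenced from 3 libraries labelled NGLY1-/- and 3 labelled wild type, all from C57BL/6 fibroblasts kept in high-glucose medium with serum and given no treatment. NGLY1 is the cytosolic enzyme that removes N-linked glycans from misfolded glycoproteins. The comparison asks which of these genes differ when it is missing. The labels do not give the deleted part of the gene, the passage, the cell density or the time since the last medium change, nor whether replicates were independent cultures or embryos, so each p-value reflects only the scatter among these 6 libraries, part of which may be technical.

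Immediate early genes are transcribed within minutes of a growth factor, serum or stress signal without the need for new protein, and their short-lived transcripts normally fall again soon after. Signals through the ERK, JNK and p38 kinases reach their promoters by way of serum response factor (SRF), its ternary complex partners such as ELK1, and CREB. The EGR proteins are zinc-finger activators that bind GC-rich sites. FOS proteins cannot pair with each other and bind DNA as heterodimers with JUN proteins, the AP-1 factor, while JUN proteins can also pair among themselves. IER2 is a small nuclear protein linked to transcriptional control. IER3, although grouped with these factors, is a regulator of survival and of ERK signalling rather than a DNA-binding protein. In cultured fibroblasts all of them are classic serum-response genes.

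The 250 bases before the start of 3 members are shown because 2 of them, Egr2 and Fosb, held the only motif matches found, and because Fos and Fosb are close relatives of which Fos alone passed the test. Capitals mark a CArG box, the site of SRF, in Egr2 and an EGR site in Fosb, and Fos had no match. The sequences are RefSeq promoters of GRCm38.p6 at chr10:67537619-67537868 (plus strand), chr7:19310046-19310295 (minus strand) and chr12:85473640-85473889 (plus strand).
Egr2: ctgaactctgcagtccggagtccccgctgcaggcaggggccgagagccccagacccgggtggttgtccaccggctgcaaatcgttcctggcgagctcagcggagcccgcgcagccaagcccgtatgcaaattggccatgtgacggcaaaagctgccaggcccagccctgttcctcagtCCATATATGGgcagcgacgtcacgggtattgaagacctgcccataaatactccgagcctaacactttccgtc
Fosb: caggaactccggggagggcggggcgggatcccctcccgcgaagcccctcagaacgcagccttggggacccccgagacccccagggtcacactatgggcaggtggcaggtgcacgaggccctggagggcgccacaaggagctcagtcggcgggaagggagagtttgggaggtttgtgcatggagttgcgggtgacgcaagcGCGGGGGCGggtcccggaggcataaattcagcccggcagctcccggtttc
Fos: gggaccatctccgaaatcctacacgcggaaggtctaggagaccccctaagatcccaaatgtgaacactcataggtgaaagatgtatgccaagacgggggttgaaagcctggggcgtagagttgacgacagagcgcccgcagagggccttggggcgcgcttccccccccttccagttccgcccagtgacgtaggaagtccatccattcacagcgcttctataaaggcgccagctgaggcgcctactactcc

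Promoter windows from 250 bases before to 50 after a start were matched for 6 members (Egr2, Fos, Fosb, Jun, Junb and Ier3), 10 windows in all because Egr2 has 5. Both strands were searched for exact matches to the CArG box, the cAMP response element TGACGTCA, the AP-1 site TGANTCA and the EGR sites GCGTGGGCG and GCGGGGGCG. Of the 5 Egr2 windows, 4 held a CArG box, and 3 of these overlap and share the site shown above, at positions -72 to -63 from that start. The remaining window held CCTTTTTTGG. The EGR site of Fosb lay at positions -50 to -42. No match overlapped another motif. Among all 32851 promoter windows of this length, 1.63% held a CArG box, 1.79% the cAMP response element, 7.81% the AP-1 site, 0.612% GCGTGGGCG and 2.91% GCGGGGGCG. A match describes letters and not binding, and no match says only that these letters are not in the window.

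Libraries held 33007239 to 37841558 counts in the knockout group and 27323577 to 37790710 in the wild-type group. Wild-type replicate 3 had the fewest counts and stood further from the other wild-type libraries than they did from each other, with a median chi-square per gene of 6.37 and 7.92 against 2.23. Without it, 10203 genes were called in all, against 9160 with all 6 libraries. Ngly1 itself averaged 14.6 ± 3.11 CPM (normalised read count relative to the scaled library size) in knockout libraries and 14.6 ± 2.94 CPM in wild-type libraries (SD, n = 3 each). A count over the whole gene does not check the genotype, so every direction below rests on the labels. Of 10 fibroblast markers, 9 were above 1 CPM on average in at least 1 group and Lum was near 0, and their summed level was 3763 to 4313 CPM in knockout libraries and 6119 to 6880 CPM in wild-type libraries. Their directions differed, but most that changed were lower in knockout libraries. At a false discovery rate of 5%, Dcn alone was higher (log2 fold change 2.20), at 15.7 against 3.36 CPM on average. By the same rule S100a4 (log2 fold change -2.92), Thy1 (-1.64), Vim (-1.36), Pdgfra (-0.97), Pdgfrb (-0.78) and Col1a2 (-0.39) were lower. Col1a1 (-0.08) and Col3a1 (0.38) did not pass. Macrophage markers summed to 2.48 to 2.71 CPM in knockout libraries and 2.01 to 3.64 CPM in wild-type libraries, mostly Cd68. Endothelial markers summed to 2.73 to 2.86 CPM in knockout libraries and 1.49 to 2.20 CPM in wild-type libraries. Among them Kdr was 1.93-fold higher in knockout libraries, at 2.19 against 1.14 CPM on average. Pecam1 had 2 counts over the knockout libraries and 27 over the wild-type libraries. Lyz2, Ptprc and Pecam1 were under 1 CPM in both groups, and Adgre1 and Emcn were not analysed here. Epithelial markers summed to 22.1 to 31.3 CPM in knockout libraries and 54.2 to 108 CPM in wild-type libraries. Most of that sum was Krt19 (log2 fold change -1.57), at 24.8 CPM on average in knockout libraries and 74.1 CPM in wild-type libraries. Krt8 (-4.50) and Cdh1 (-1.51), both under 1 CPM on average in each group, were also lower, while the groups overlapped for Krt18 (0.26). Of 4 skeletal muscle markers only Des was analysed here, at 3.24 to 3.78 CPM in knockout libraries and 0.110 to 0.836 CPM in wild-type libraries. Neural markers overlapped in sum, at 259 to 351 CPM in knockout libraries and 201 to 343 CPM in wild-type libraries. Most of that sum was Nes, at 277 CPM on average in knockout libraries and 244 CPM in wild-type libraries, with overlapping groups. Sox2 was 7.72-fold higher in knockout libraries, at 2.11 against 0.270 CPM, and Tubb3 2.79-fold higher, at 36.6 against 13.1 CPM. The part of these marker levels in the results below was not tested. In bulk RNA, more cells with a transcript and more transcript per cell cannot be told apart.

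Of the 10 members, 9 rose in knockout libraries, 0 fell and Fosb did not pass, at a false discovery rate of 5% in edgeR's quasi-likelihood test with Benjamini-Hochberg adjustment over all tested genes. Among all genes tested, 30.7% were higher and 30.2% lower by the same rule, 60.9% in all, so a single call is common in these libraries. The 9 were also at least 2-fold higher with all 6 libraries, which 13.6% of tested genes were, while 14.9% were at least 2-fold lower. Fos passed 2-fold narrowly: it was at 1.89-fold with library totals only, 1.99-fold in limma-voom, 1.69-fold without knockout replicate 1 and 1.94-fold without wild-type replicate 3. The median log2 fold change of the members was 2.40, against -0.04 for all tested genes. The knockout and wild-type libraries did not overlap for the same 9 genes, all higher in knockout, as for 33.8% of all tested genes, with 33.5% separated the other way and 67.3% in either direction. No member was lower at an unadjusted p under 0.05 either, nor in DESeq2 or limma-voom, where the counts were again 9 and 0.

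**Figure D1:**
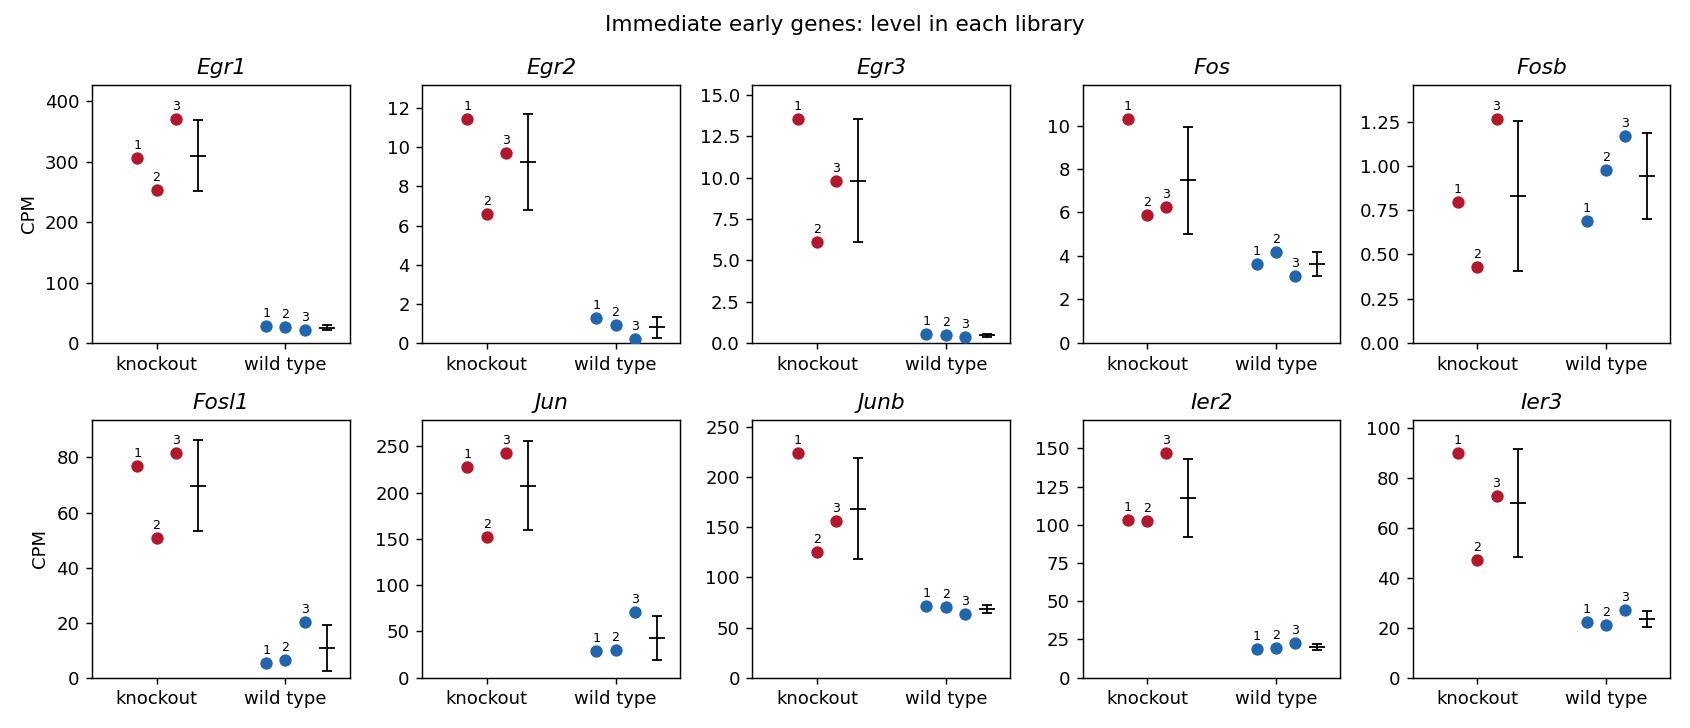
CPM of each member in each library, knockout left of wild type, with the replicate number beside each point and the group mean with its SD as a bar. All 3 knockout libraries lie above all 3 wild-type libraries in every panel except that of Fosb, and wild-type replicate 3 lies above the other wild-type libraries for Fosl1 and Jun.

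With all 6 libraries the EGR genes had the 3 largest folds of the members. Without wild-type replicate 3, Fosl1 (12.0-fold) stood above Egr1 (11.4-fold) and Egr2 (8.55-fold), and it did so too without both libraries numbered 3. Egr1, the early growth response activator induced by serum in fibroblasts, had 306, 253 and 372 CPM in knockout libraries, against 28.7, 26.4 and 21.0 CPM in wild-type libraries. Its lowest knockout library was 8.81-fold above its highest wild-type library. The fitted rise was 12.2-fold (log2 fold change 3.61, SE 0.17, adjusted p = 2.3e-07), a log2 fold change above that of 97.5% of tested genes. Egr1 was also the most abundant EGR transcript in both groups, read on 10369, 8305 and 13179 counts in knockout libraries and 1169, 1029 and 573 in wild-type libraries.

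Egr2, a relative best known from hindbrain and Schwann cell development, had 11.5, 6.61 and 9.70 CPM in knockout libraries, against 1.25, 0.925 and 0.220 CPM in wild-type libraries. The wild-type values were uneven, with replicate 3 resting on 6 counts. Egr2 rose 11.1-fold (log2 fold change 3.47, SE 0.45, adjusted p = 0.000171), and 8.55-fold without wild-type replicate 3. Egr3, whose product acts in muscle spindles and lymphocytes, had 13.6, 6.09 and 9.78 CPM in knockout libraries, against 0.541, 0.462 and 0.366 CPM in wild-type libraries. Its counts were 460, 200 and 347 in knockout libraries and 22, 18 and 10 in wild-type libraries. Egr3 rose 21.0-fold (log2 fold change 4.39, SE 0.35, adjusted p = 4.17e-06), the largest fold of the 10 members, and its groups lay 11.3-fold apart at their nearest points. The standard errors of the 3 EGR genes leave the order of Egr1 and Egr2 unresolved, and they do not firmly set Egr3 above Egr2 either.

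Among the Fos genes, the largest change was in Fosl1 and not in Fos. Fosl1 encodes FRA-1, a FOS protein without the strong activation domain of FOS that stays present longer after a stimulus. It had 76.8, 50.9 and 81.5 CPM in knockout libraries, against 5.16, 6.57 and 20.3 CPM in wild-type libraries. The wild-type value was high in replicate 3, yet below every knockout library. Fosl1 rose 6.64-fold (log2 fold change 2.73, SE 0.53, adjusted p = 0.00399). Without wild-type replicate 3 the rise was 12.0-fold, and without both libraries numbered 3 it was 11.0-fold.

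Fos, the founding member, had 10.3, 5.88 and 6.26 CPM in knockout libraries, against 3.61, 4.19 and 3.07 CPM in wild-type libraries. The gap between the groups was narrow, 1.40-fold at the nearest points, and the rise was 2.06-fold (log2 fold change 1.04, SE 0.25, adjusted p = 0.0045). Fosb, the relative whose short splice form accumulates in stimulated neurons, had 0.796, 0.427 and 1.27 CPM in knockout libraries, against 0.688, 0.976 and 1.17 CPM in wild-type libraries. These were 27, 14 and 45 counts in knockout libraries and 28, 38 and 32 in wild-type libraries. The groups overlapped, and the log2 fold change of -0.17 (SE 0.44) had an adjusted p of 0.753. Few reads and a wide spread lie behind that value, which ran from -0.59 to 0.15 when 1 library was left out.

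Jun and Junb rose as well, by smaller folds than the EGR genes and Fosl1 and by larger ones than Fos. Jun had 227, 152 and 242 CPM in knockout libraries, against 28.7, 29.8 and 70.9 CPM in wild-type libraries. As for Fosl1, wild-type replicate 3 was the highest of its group and still under the lowest knockout library, which was 2.15-fold above it. Jun rose 4.83-fold (log2 fold change 2.27, SE 0.38, adjusted p = 0.00128), and 7.16-fold without wild-type replicate 3. Junb, whose product is a weaker activator than JUN and can restrain it, had 224, 125 and 156 CPM in knockout libraries, against 71.3, 70.6 and 63.6 CPM in wild-type libraries. Its wild-type libraries were the most even of the members, with a coefficient of variation of 6.18%, against 30.0% in knockout libraries. Junb rose 2.46-fold (log2 fold change 1.30, SE 0.19, adjusted p = 0.00035).

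Ier2 and Ier3 were the remaining members that rose. Ier2 had 103, 103 and 147 CPM in knockout libraries, against 18.9, 19.6 and 22.5 CPM in wild-type libraries. It was 4.56-fold higher at the nearest points and 5.79-fold higher in the fit (log2 fold change 2.53, SE 0.16, adjusted p = 9.38e-07). Ier3 had 90.0, 47.1 and 72.9 CPM in knockout libraries, against 22.4, 21.1 and 27.2 CPM in wild-type libraries. It rose 2.98-fold (log2 fold change 1.57, SE 0.22, adjusted p = 0.000287), with the knockout libraries spread more widely than the wild-type ones.

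**Figure D2:**
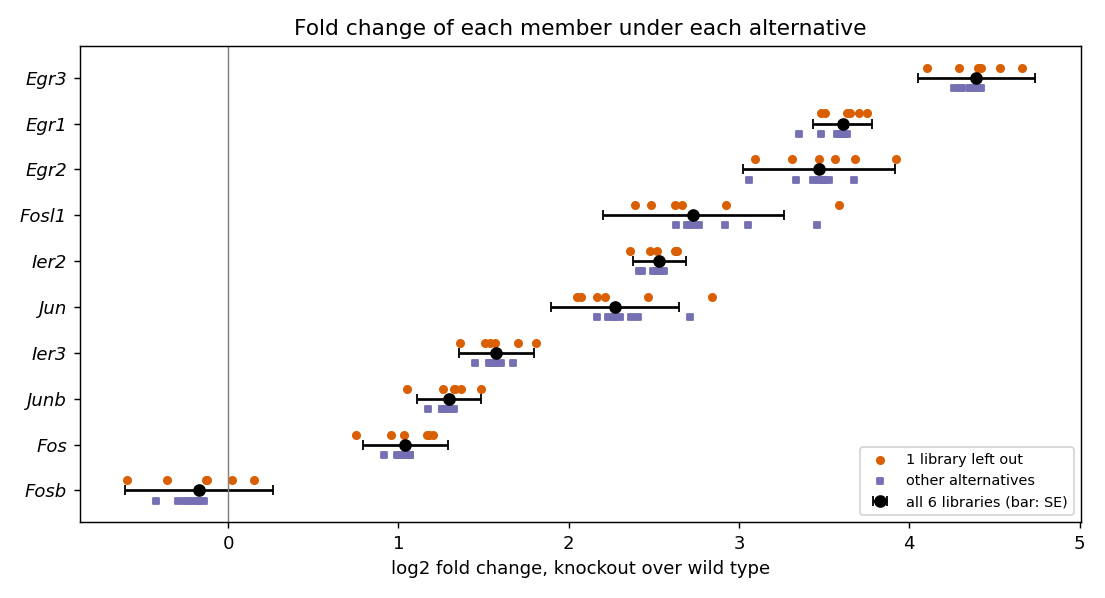
Log2 fold change of each member, knockout over wild type, with all 6 libraries (black, bar: SE), with 1 library left out (orange) and under the other alternatives (purple squares). Egr3 lies highest at 4.39, Fosl1 and Jun move furthest up when wild-type replicate 3 is left out, and only Fosb crosses 0.

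The make-up of each family was also read, as the share of each gene in the family's summed CPM per kb of its longest coding transcript. A share does not depend on how libraries are scaled. Fosl2, which encodes FRA-2 and is not among the 10, fell to 113 ± 14.3 CPM in knockout libraries, against 186 ± 20.1 CPM in wild-type libraries (SD, n = 3 each; log2 fold change -0.72, adjusted p = 0.00053 in edgeR's test). Fosl1 made up 62.9%, 60.5% and 67.7% of the Fos family in knockout libraries, against 7.69%, 10.2% and 28.8% in wild-type libraries. Fosl2 made up 29.4%, 33.1% and 27.2% in knockout libraries, against 87.1%, 83.2% and 66.5% in wild-type libraries. Per kb, the leading Fos-family transcript was thus Fosl1 in all 3 knockout libraries and Fosl2 in all 3 wild-type libraries. The order in knockout libraries rests on the lengths used, 1864 bases for Fosl1 and 6537 for Fosl2. In CPM, Fosl2 was above Fosl1 there, at 126, 97.6 and 115 against 76.8, 50.9 and 81.5. Fos was a small part in both, 6.08 ± 1.44% in knockout libraries and 4.79 ± 0.961% in wild-type libraries (SD, n = 3 each).

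In the Jun family the share of Jun was 29.0%, 27.5% and 35.7% in knockout libraries, against 9.60%, 10.1% and 21.8% in wild-type libraries. Jund, the member least tied to stimulation, made up 20.7%, 32.7% and 23.9% in knockout libraries, against 48.4%, 47.9% and 43.8% in wild-type libraries. Its own level was 88.2 ± 5.67 CPM in knockout libraries and 74.8 ± 0.846 CPM in wild-type libraries (SD, n = 3 each; log2 fold change 0.24, adjusted p = 0.037 in edgeR's test). That call was lost with library totals only (adjusted p = 0.311 in edgeR's test) and under a filter of 1 CPM in 3 libraries (adjusted p = 0.0599). Leaving out knockout replicate 2 (adjusted p = 0.135), or one wild-type library, replicate 1 (0.0761) or else replicate 2 (0.103), also ended it. Junb overlapped between the groups, with 43.5 ± 5.87% of the family in knockout libraries and 39.5 ± 4.38% in wild-type libraries. Egr1 made up 92.5 ± 1.92% of the EGR family in knockout libraries and 93.9 ± 2.37% in wild-type libraries (SD, n = 3 each), overlapping, and Egr4 had 2, 1 and 0 counts in knockout libraries and 0 in each wild-type library.

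The summed level of the family was 58.4 ± 11.5 CPM per kb in knockout libraries and 36.1 ± 1.73 in wild-type libraries for Fos genes. For Jun genes it was 211 ± 36.1 CPM per kb in knockout libraries and 96.2 ± 5.11 in wild-type libraries. For EGR genes it was 74.8 ± 14.2 CPM per kb in knockout libraries and 6.04 ± 1.09 in wild-type libraries (SD, n = 3 each). The groups were separated for these 3 sums and for the shares of Fosl1, Fosl2, Jun, Jund and Egr3. Each of these had a two-sided exact permutation p of 0.1, the smallest that 3 against 3 libraries allow. The higher Fos sum depends on the transcript lengths used, and the sums were not read under other lengths. In CPM, Fosl1 averaged 69.7 in knockout libraries and 10.7 in wild-type libraries, while Fosl2 averaged 113 and 186. A higher Fos sum is therefore not read without the lengths.

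**Figure D3:**
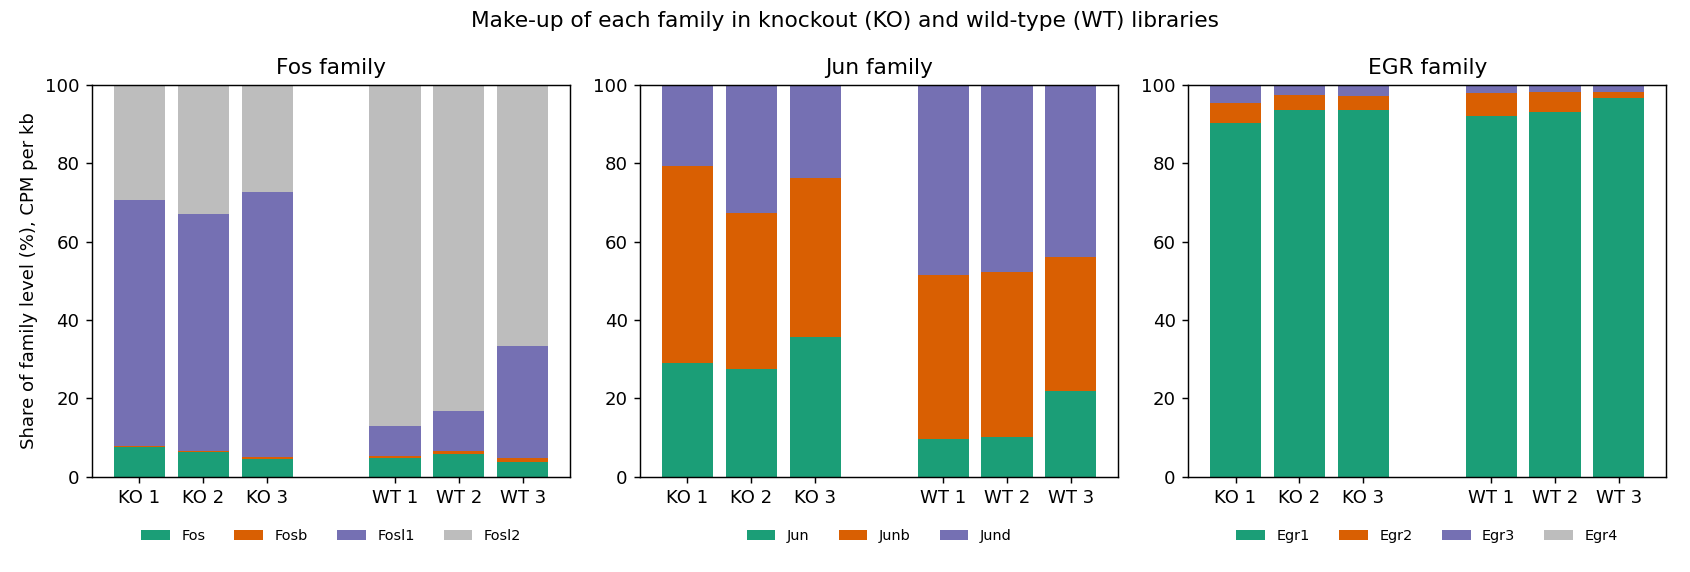
Share of each gene in the summed CPM per kb of the Fos, Jun and EGR families, 1 bar per library, knockout (KO) left of wild type (WT). Fosl1 takes 60.5% to 67.7% of the Fos family in knockout libraries and 7.69% to 28.8% in wild-type libraries, while the EGR bars are mostly Egr1 in all 6.

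On the same scale of level per kb, Junb was highest in both groups, at 93.0 ± 27.9 CPM per kb in knockout libraries and 37.9 ± 2.34 in wild-type libraries (SD, n = 3 each). In knockout libraries that place rests on the lengths used. In CPM, Egr1 was highest there on average, at 310, against 207 for Jun and 168 for Junb. In knockout libraries Junb, Ier2, Egr1, Jun, Ier3 and Fosl1 followed each other, and each overlapped the next in its range. A gap then separated Fosl1, at 37.4 ± 8.85 CPM per kb, from Fos, at 3.55 ± 1.17, with Egr2 and Egr3 overlapping in turn below it and Fosb last at 0.220 ± 0.112. In wild-type libraries the order was Junb, Ier3, Jun, Ier2, Fosl1, Egr1, Fos, Egr2, Fosb and Egr3. There only Ier3 and Jun, Jun and Ier2, Fosl1 and Egr1, and Egr2 and Fosb overlapped as neighbours. Egr3 stood below Fosb in wild-type libraries, at 0.116 ± 0.0222 CPM per kb against 0.250 ± 0.0642, and above it in knockout libraries.

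Within the knockout group the members shared their lowest library but not their highest. Knockout replicate 2 was the lowest of its group for 10 of 10 members, as it was for 29.7% of all tested genes, and the highest was replicate 1 for 5 members and replicate 3 for the other 5. In the wild-type group replicate 3 was lowest for 5 members (the 3 EGR genes, Fos and Junb) and highest for 5 (Fosb, Fosl1, Jun, Ier2 and Ier3), as it was lowest for 42.5% and highest for 41.2% of all tested genes. Members as a whole took 0.101%, 0.0746% and 0.103% of the counts in knockout libraries, against 0.0195%, 0.0189% and 0.0230% in wild-type libraries.

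The members lie on 9 chromosomes, with Junb and Ier2 both on chromosome 8. Positions refer to GRCm38 (mm10). For 9 members the tested genes within 5 Mb had median log2 fold changes from -0.34 around Junb to 0.37 around Fosb. Egr1 (chromosome 18, 34861207 to 34864956) lay outside that range: the 129 tested genes around it had a median log2 fold change of 0.67, 83 of them were higher and 13 lower, and 3 had a larger change than Egr1. The part of this regional difference in the level of Egr1 was not tested. Of other genes named here on chromosome 18, Crem, Hbegf and Map3k2 were higher and the fibroblast marker Pdgfrb was lower (log2 fold change -0.78). The chromosome as a whole was not tested. Egr3 (chromosome 14, 70077317 to 70082613) and Jun (chromosome 4, 95049036 to 95052222) each had 1 gene with a larger change among 68 and 27 neighbours. Fosl1 (chromosome 19, 5447698 to 5455938) had 2 among 212.

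In the GENCODE annotation 3 members overlap a gene on the opposite strand, and since no strand setting is given for the counting, reads could have been shared. All 3 partners were lower where the member was higher. Junos, which overlaps Jun, was at -1.22 on the log2 scale (adjusted p = 0.000456 in edgeR's test). Prdx2, a peroxiredoxin gene beside Junb (chromosome 8, 84976909 to 84978748), was at -0.91 (adjusted p = 2.43e-05), and Ccdc85b, beside Fosl1, at -0.57 (adjusted p = 0.00142).

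Of the other leucine-zipper genes that pair with or oppose AP-1, 9 of 12 tested rose and 2 fell, with a median log2 fold change of 0.69. This count and those of the lists below stand beside 30.7% of all tested genes higher and 30.2% lower. No list was tested as a set. Atf3, a stress-induced repressor and JUN partner, reached 150 ± 59.7 CPM in knockout libraries, against 10.5 ± 1.24 CPM in wild-type libraries (SD, n = 3 each; log2 fold change 3.84, adjusted p = 7.86e-06 in edgeR's test). Crem, whose gene also yields the repressor ICER, and which lies on chromosome 18 like Egr1, rose by a log2 fold change of 1.38 (adjusted p = 3.75e-05). Mafk and Batf3 rose by 1.11 and 1.09 (adjusted p = 0.00152 and 0.000667). Maf (-1.16) and Atf2 (-0.28), both picked out after seeing their values, fell, and Atf2 lost its call when knockout replicate 2, knockout replicate 3 or wild-type replicate 2 was omitted. Of the genes that rose, Jdp2 lost its call in 9 of the 14 alternatives and Atf7 in 6, so that 7 rose with library totals only and 6 under a filter of 1 CPM in 3 libraries, where Batf2 was not tested.

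The NAB proteins bind EGR factors and repress them, and Nab2 is itself an EGR target. Both tested genes of this list fell and 0 rose, also in DESeq2 and limma-voom and at an unadjusted p under 0.05. Nab1 had 63.3 ± 6.76 CPM in knockout libraries and 101 ± 1.53 CPM in wild-type libraries (SD, n = 3 each; log2 fold change -0.68, adjusted p = 0.000221 in edgeR's test). Nab2 had 65.0 ± 6.30 CPM in knockout libraries and 86.2 ± 10.7 CPM in wild-type libraries (SD, n = 3 each; log2 fold change -0.41, adjusted p = 0.0125). The call of Nab2 was lost without knockout replicate 2 (adjusted p = 0.0728) or wild-type replicate 2 (0.0632). Wt1, a zinc-finger relative, was not analysed here, and Egr4 was too low to be tested.

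Of 8 EGR target genes, a list that also holds Nab2, 3 rose and 4 fell, and their median log2 fold change was -0.05. F3, encoding tissue factor, rose to 68.1 ± 4.47 CPM in knockout libraries, against 30.5 ± 0.564 CPM in wild-type libraries (SD, n = 3 each; log2 fold change 1.16, adjusted p = 4.75e-06 in edgeR's test). The matrix protein gene Thbs1 fell to 179 ± 32.6 CPM in knockout libraries, against 1471 ± 233 CPM in wild-type libraries (SD, n = 3 each; log2 fold change -3.04, adjusted p = 4.9e-07). Pdgfb, a growth factor gene, and Id3, an inhibitor of helix-loop-helix factors, had log2 fold changes of -1.29 and -1.12 (adjusted p = 0.000482 and 0.000197). The list therefore went both ways while all 3 tested EGR members rose.

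AP-1 target genes of fibroblasts were higher for 9 of 11 tested and lower for 1, and the median over the list was 1.09 on the log2 scale. Over all alternatives the count of higher genes ran from 7 to 10. Tnc, a matrix glycoprotein gene, rose by a log2 fold change of 3.70 (adjusted p = 2.13e-08 in edgeR's test). Spp1, encoding osteopontin, reached 1695 ± 216 CPM in knockout libraries, against 290 ± 63.6 CPM in wild-type libraries (SD, n = 3 each; log2 fold change 2.54, adjusted p = 2.12e-06). Hbegf, a ligand of the EGF receptor on chromosome 18, had 185 ± 93.1 CPM in knockout libraries and 32.8 ± 4.12 CPM in wild-type libraries (SD, n = 3 each; 5.66-fold, adjusted p = 0.000514), and its call was lost without both libraries numbered 3 (adjusted p = 0.0974). Il6, a cytokine gene, rose by a log2 fold change of 5.21 on 158 counts over the knockout libraries and 4 over the wild-type libraries (adjusted p = 0.000117). Of those 4 counts 3 were in wild-type replicate 3, and the Il6 log2 fold change was 6.61 without it and 4.61 without wild-type replicate 2. The stromelysin gene Mmp3 (-3.42), picked out after seeing its value, fell. Mmp9, Mmp10 and Mmp13, also matrix metalloproteinase genes, were too low to be tested with all 6 libraries, and the count of lower genes was 2 when a knockout library or wild-type replicate 3 was omitted.

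Upstream of the members, mRNA of the SRF group did not shift one way: 2 of 9 tested genes rose and 3 fell. By the same rule 30.7% of all tested genes were higher and 30.2% lower. Srf itself, named after its value was seen, had 71.8 ± 6.46 CPM in knockout libraries and 69.9 ± 13.5 CPM in wild-type libraries (SD, n = 3 each; log2 fold change 0.04, adjusted p = 0.816 in edgeR's test). The ternary complex factor genes Elk3 and Elk1 had log2 fold changes of -1.16 and -0.78 (adjusted p = 2.89e-06 and 9.97e-05), and Elk4 one of 0.69 (adjusted p = 0.000446). Mkl2, an actin-regulated SRF coactivator gene, fell by 0.96 on the log2 scale (adjusted p = 1.28e-05). With library totals only, 1 gene of the group rose and 5 fell.

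From growth factor receptors to ERK, 6 of 20 genes rose and 7 fell, and 6 rose in DESeq2 and limma-voom too, with 8 lower in each. These shares are near those of all tested genes, 30.7% higher and 30.2% lower, so no shift of the group is read from them. Scaling by library totals only left 4 that rose and 12 that fell. The higher count was also 4 without knockout replicate 3 or wild-type replicate 2, and 9 were lower without wild-type replicate 3. Egfr, the epidermal growth factor receptor gene, rose to 81.5 ± 5.28 CPM in knockout libraries, against 7.68 ± 0.154 CPM in wild-type libraries (SD, n = 3 each; log2 fold change 3.41, adjusted p = 1.47e-08 in edgeR's test). Rps6ka2, which encodes an RSK kinase downstream of ERK, rose by 2.60 on the log2 scale (adjusted p = 1.52e-07), and its relative Rps6ka1 had a value of -1.37 (adjusted p = 9.55e-06). Shc1, a receptor adaptor gene, fell by 0.82 on the log2 scale (adjusted p = 0.000121). These are transcript levels and say nothing of kinase activity.

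In the JNK, p38 and ERK5 group 7 of 17 genes rose and 3 fell, with a median log2 fold change of 0.07. Map3k5, encoding the stress kinase ASK1, had 13.2 ± 0.281 CPM in knockout libraries and 4.61 ± 0.256 CPM in wild-type libraries (SD, n = 3 each; log2 fold change 1.51, adjusted p = 9.94e-06 in edgeR's test). Map3k2 (0.85, adjusted p = 2.3e-05), on chromosome 18, and the p38 gene Mapk11 (0.68, adjusted p = 0.000981) rose, and Map2k5 fell by 0.63 on the log2 scale (adjusted p = 0.000436).

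Beyond the 10, a list of 32 other immediate early genes was read in the same fit. Of these, 18 rose, 4 fell and 10 did not pass, with a median log2 fold change of 0.90, so their direction was less uniform than that of the members by count, a difference that was not tested. The growth arrest genes Btg1 and Btg2 had log2 fold changes of 1.24 and 1.74 (adjusted p = 9.47e-06 and 3.09e-05 in edgeR's test). Klf4, a zinc-finger factor gene, reached 119 ± 8.95 CPM in knockout libraries, against 27.7 ± 5.04 CPM in wild-type libraries (SD, n = 3 each; log2 fold change 2.10, adjusted p = 1.08e-06). Dusp1, whose product is a phosphatase that switches off JNK and p38, went the other way. It had 9.97 ± 0.458 CPM in knockout libraries and 55.7 ± 12.3 CPM in wild-type libraries (SD, n = 3 each; log2 fold change -2.48, adjusted p = 1.2e-06). Chosen after seeing their values, the other genes that fell were Gadd45b (-0.71), Csrnp1 (-0.60) and Zfp36l1 (-0.56). Myc, chosen in the same way, rose and had the largest log2 fold change of the list, 3.24 (adjusted p = 0.00424 in edgeR's test). It had 271 ± 79.8 CPM in knockout libraries and 28.8 ± 22.6 CPM in wild-type libraries (SD, n = 3 each). The NR4A receptor genes, chosen in the same way, did not pass: Nr4a1 had a log2 fold change of -0.31, Nr4a2 of 0.32 and Nr4a3 of 0.64. Without wild-type replicate 3, 21 genes of the list rose, Ctgf (log2 fold change 2.01), Phlda1 (1.48) and Cited2 (0.40) being added, and 3 fell, Csrnp1 no longer passing. The higher count was 17 without wild-type replicate 1, without wild-type replicate 2 and with no low-count filter, where Ptgs2 lost its call.

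Immediate early transcripts carry AU-rich elements read by decay and stability factors, and of 11 such genes, 2 of them (Zfp36 and Zfp36l1) also on the previous list, 2 rose and 5 fell. Zfp36l2 (log2 fold change 0.98, adjusted p = 0.000675 in edgeR's test) and Zfp36 (0.69, adjusted p = 0.00301), which encode decay factors, rose. Khsrp, another decay factor gene, fell by 0.66 and Tia1, a translational repressor gene, by 0.63 on the log2 scale (adjusted p = 0.000705 and 0.00117). Without wild-type replicate 3, 4 rose, and without knockout replicate 3 or wild-type replicate 2, 3 fell.

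**Figure D4:**
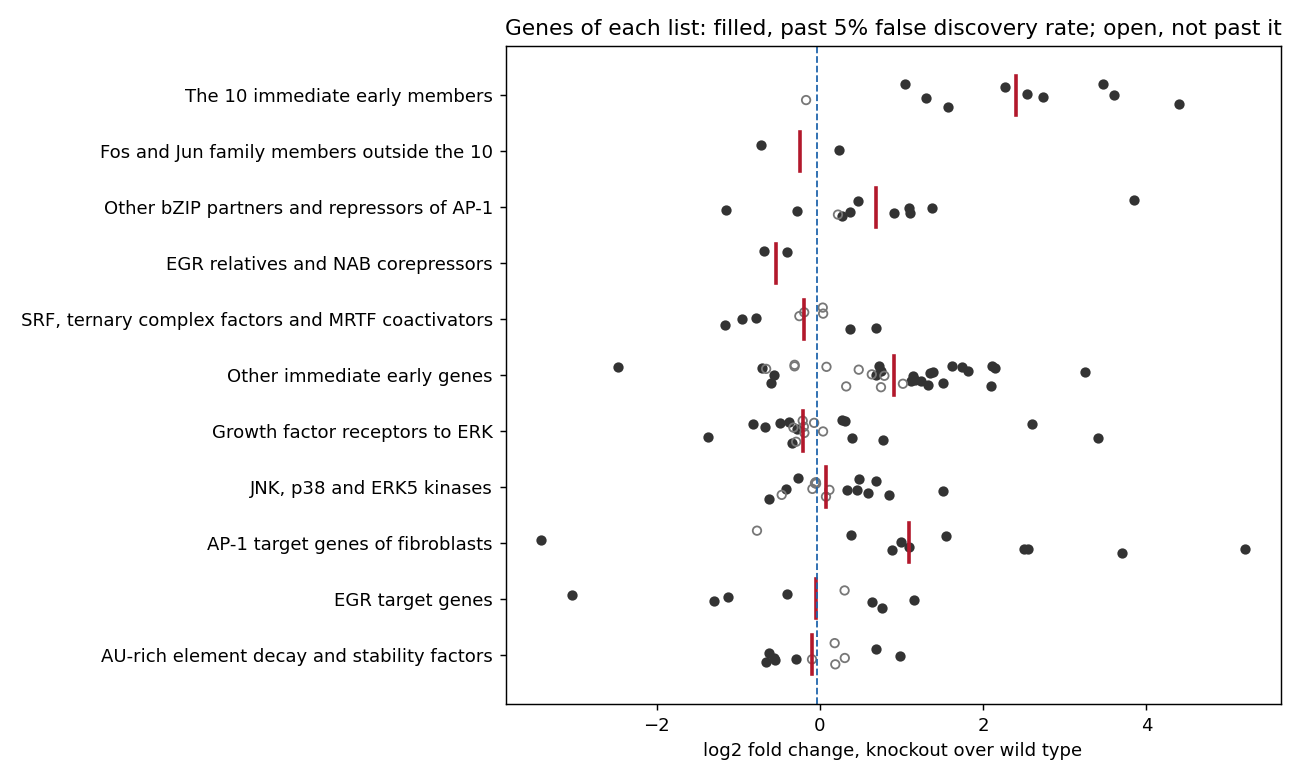
Log2 fold change, knockout over wild type, of every tested gene of each list, filled where past the 5% false discovery rate and open where not, with the list median as a red line and the median of all tested genes (-0.04) dashed. The members centre at 2.40, other immediate early genes at 0.90 and AP-1 targets at 1.09, and Batf2, at 94 counts over the knockout libraries and 0 over the wild-type libraries (32.8-fold or more, taking 3 counts as the lowest readable wild-type sum), is not drawn.

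Across the 6 libraries, the genes of at least 5 CPM whose centred log2 CPM lay nearest to that of Fos were the chemokine genes Ccl2 and Ccl7 and the DNA repair gene Fancf, with root mean square differences of 0.0736, 0.138 and 0.150. Ccl2 had 82.3 CPM on average in knockout libraries and 37.6 CPM in wild-type libraries. The nearest to Egr1 were Adm2, Ulbp1 and Rnf213, with differences of 0.165, 0.166 and 0.180 and log2 fold changes of 3.68, 3.62 and 3.55. Over 6 libraries in 2 groups such likeness mostly restates a fold change of the same size.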

How the data were processed

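Per the labels' protocols, Trizol RNA of 6 fibroblast libraries was prepared with a kit for total RNA that keeps strand. The deposited values are raw whole-number counts per gene, keyed by NCBI Gene ID, made by the authors and used as deposited, per the file headers. The submitters' processing notes name STAR 2.5.1b and mm10. How reads were counted, on which annotation and with which strand setting, is not given in the sources used here.

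Genes kept by filterByExpr were scaled by TMM and tested two-sided in R 4.3.3 with edgeR 4.0.16 (robust quasi-likelihood fit, genotype as the only term), with Benjamini-Hochberg adjustment over all tested genes. Library sizes behind CPM were TMM-scaled. Fold changes are from that fit, with a biological coefficient of variation of 15.5%. Each SE is the absolute log2 fold change divided by the square root of the test's F statistic. The step was also run on simulated data with few changed genes and an even scatter. These libraries differ from that setting, so the run does not vouch for the error rate here. Family shares used GENCODE M21 transcript lengths and exact permutation tests. Gene positions came from a RefSeq table holding 97.3% of the tested IDs.

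The members and lists were chosen with earlier results of these data known. Genes outside the members were named by a rule: all genes of lists of up to 5, otherwise up to 4 per list by smallest p among called, separated genes of at least 1 CPM. Alternatives used DESeq2 1.42.0 and limma 3.58.1, other scalings and filters, the replicate number as a block, and each library left out.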

Additional observations from a re-analysis of the deposited data

How the results depend on the processing

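The counts of 9 members higher and 0 lower were the same under all 14 alternatives, among them DESeq2 size factors, library totals only, a stricter and an absent low-count filter, the DESeq2 test, limma-voom, each library left out in turn and both libraries numbered 3 left out. The median log2 fold change of the members ran from 2.22 to 2.73, both ends from leaving out 1 wild-type library. Scaling by library totals only moved the median of all tested genes from -0.04 to -0.16, and no low-count filter moved it to -0.15. The log2 fold change of Fosb, not past the threshold under any alternative, turned to 0.15 without knockout replicate 2 and to 0.023 without wild-type replicate 3, and spanned -0.59 to 0.15 with 1 library left out. That of Ngly1, near 0 throughout, was 0.024 with no filter and spanned -0.18 to 0.10 with 1 library left out. No label says that a replicate number pairs libraries, and 6 libraries are too few to settle it. Deviations of same-numbered libraries from their group means correlated at 0.096, 0.014 and 0.209. Of the 6 libraries, 3 correlated best with their own number. With the replicate number as a block, 9253 genes were called against 9160, the members' counts held, Ngly1 was at 0.00085 and Jund lost its call, so that 0 of the 2 Fos and Jun relatives rose.

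For the Fos and Jun relatives, 0 rose with library totals only and under the filter of 1 CPM, and 0 to 1 with 1 library left out. With library totals only, 1 gene of the SRF group rose and 5 fell, and 4 genes of the ERK group rose and 12 fell. Higher leucine-zipper genes numbered 6 to 9 over all alternatives, and higher ERK-group genes 4 to 6. Without a filter, and again when both libraries numbered 3 were omitted, 1 other leucine-zipper gene fell and 2 AP-1 targets fell. With 1 library left out, 1 to 2 leucine-zipper genes, 1 to 2 EGR relatives, 1 to 2 AP-1 targets and 3 to 5 decay and stability genes fell, and 2 to 4 of the last rose. Beyond what the fewer libraries and genes entail, the cause was not tested. Depth limits Fosb, Egr2 and Egr3 in wild-type libraries most, at 6 to 51 counts. Intervals of counting error were not added, because reads here carry no molecular identifiers.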
